A study of Mus musculus with 12 samples.

Results

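Transcript levels in the cochlea of middle-aged C57BL6j mice were compared with those of young adult mice. The ages were 45 weeks and 15 weeks. The comparison covers 12595 of the 19057 genes named on the array, read by 19215 of its 45281 probes: those with 1 gene name whose mean level exceeds the all-probe median. All animals carried the C57BL6j background and were kept under standard laboratory conditions, and the vestibular organs had been removed from the tissue. Each age had 2 pools of cochlear RNA, called a and b, made from groups of 5 by the series' design text, and each pool was hybridised to 2 arrays. The comparison therefore rests on 8 of the 12 arrays of the series and on n = 2 pools per age. The series also holds 4-week pools, which entered the fit to estimate the spread between pools. They also entered the mean level by which probes were filtered and the brightest probe of a gene was chosen. The labels give no sex, and they do not say whether 5 counts mice or cochleae. Levels are in log2 units after the authors' normalization, and all differences are given as 45 minus 15 weeks.

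C57BL/6J mice carry a variant of Cdh23, the cadherin of the links that join the stereocilia of hair cells, and lose hearing progressively from the high frequencies down. Hair cells turn vibration into electrical signals, the stria vascularis keeps the potassium-rich fluid around their bundles, and spiral ganglion neurons carry the signal to the brain. The span compared here, from young adulthood to middle life, is the one in which this loss is known to advance in the strain.

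Over the whole array, middle age was accompanied by small differences in both directions. Levels lay higher at 45 weeks for 9515 named probes and lower for 9700, with a median difference of -0.0024. The central 90% of differences ran from -0.36 to 0.36, and 34 named probes differed by more than 1 log2 unit, 26 of them higher and 8 lower at 45 weeks. The only named probes with a difference above 2 were those of the pituitary hormone genes Prl and Gh, and 0 lay below -2. No probe passed limma's moderated test at an adjusted p under 0.05, which is 0% of the 22640 probes tested, and the smallest adjusted p was 0.136. At an unadjusted p under 0.05, 907 probes were higher (4.01% of those tested) and 938 lower (4.14%). A single gene below is therefore described as lying higher or lower, with its limma SE, and never as called.

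**Figure D1:**
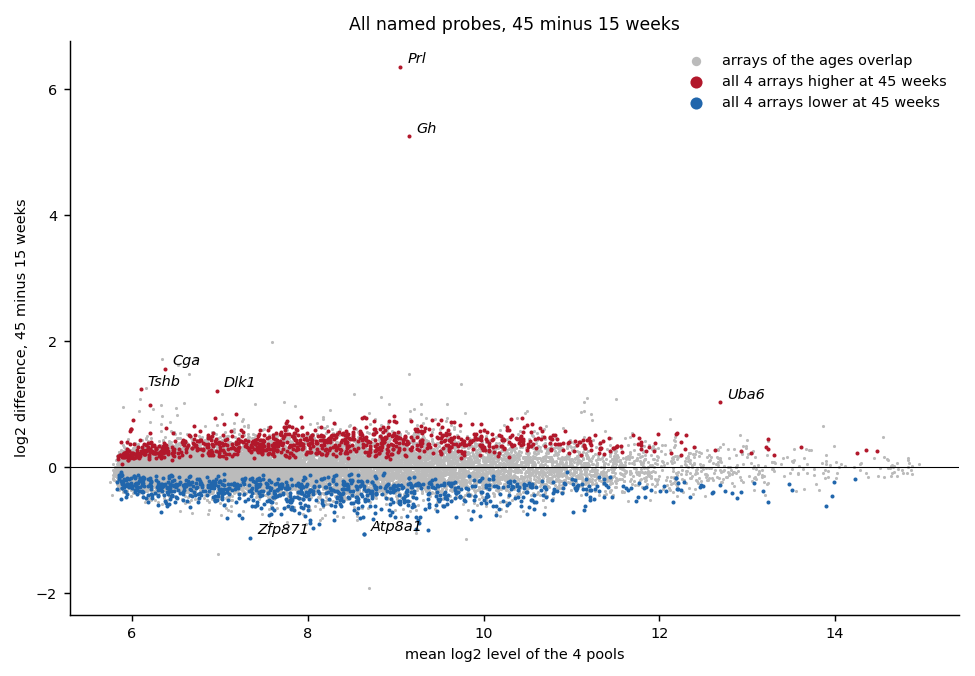
Log2 difference (45 minus 15 weeks) against the mean log2 level of the 4 pools for the 19215 named probes. Red and blue points are probes whose 4 arrays at 45 weeks all lie above or all lie below the 4 arrays at 15 weeks, and grey points are the rest. Prl at 6.36 and Gh at 5.26 stand far above all other named probes.

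The pools of an age agreed no better with each other than pools of different ages. The median correlation across probes was 0.975 for arrays of different pools of 1 age (lowest 0.964, highest 0.981) and 0.976 for arrays of different ages (lowest 0.965, highest 0.986). Of all pool pairs compared, pool a at 45 weeks and pool b at 15 weeks were the most alike (r = 0.990). The 2 arrays of a pool correlated at 0.989 for pool a and 0.996 for pool b at 45 weeks, and at 0.983 for pool a and 0.984 for pool b at 15 weeks. The difference of pool a at 45 weeks from pool a at 15 weeks had r = -0.20 across probes with that of the pools b, and 48.1% of probes had the same sign in both. Matched the other way, pool a at 45 weeks against pool b at 15 weeks and pool b at 45 weeks against pool a at 15 weeks, r was 0.21 with 65.1% of the same sign. These are descriptions across probes, which share arrays and are no replicates.

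Both 45-week pools lay above both 15-week pools for 4472 probes (19.8% of those tested) and below them for 4512 (19.9%). With all arrays kept apart, the 4 arrays at 45 weeks lay above the 4 at 15 weeks for 1054 probes (4.66%) and below them for 1036 (4.58%). Of the 34 named probes that differed by more than 1, pools did not overlap for 20 and arrays did not overlap for 10. Those 10 were Gh, Prl, Cga, Tshb, Dlk1 and Uba6 on the higher side and Zfp871, Atp8a1, Fam102b and Gna13 on the lower side. The gap between the arrays of at least 1 pool was wider than the age difference for 85.4% of named probes. Array gaps were widest at 15 weeks: 41 probes in the a pool and 0 in the b pool differed by more than 1 between arrays at 45 weeks, against 200 in the a pool and 200 in the b pool at 15 weeks.

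Some genes followed a pool and not an age. The Y-linked gene Eif2s3y read 9.70 and 9.92 in pool a but 5.62 and 5.68 in pool b at 45 weeks, against 9.42 to 9.96 at 15 weeks. Xist, the RNA of the inactive X chromosome, read 5.69 and 6.10 in the a pool and 7.67 and 7.53 in the b pool at 45 weeks, against 5.84 to 5.97 at 15 weeks. Pool b at 45 weeks thus stood apart from the other 3 in the sex-linked genes. Bpifb1, a secreted protein gene of airway and oral epithelium, read 13.3 on both arrays of pool a and 7.27 on both of pool b at 45 weeks, against 13.7 and 14.1 in the a pool and 7.23 and 7.19 in the b pool at 15 weeks (probe ILMN_2493371). Lipf, the gastric lipase gene, followed the same pools, with means of 13.5 and 5.76 at 45 weeks against 13.4 and 6.70 at 15 weeks for pools a and b. The salivary protein genes Dcpp3, Bpifa2 and Pip were high in pool a at 45 weeks alone. Dcpp3 read 9.01 and 8.86 there and 5.52 and 5.41 in pool b at 45 weeks, against 5.38 to 5.62 at 15 weeks. Bpifa2 read 9.16 and 9.12 in that pool and Pip 8.82 and 9.03. Dcpp3 has the near copies Dcpp1 and Dcpp2, and the probes of these genes may read each other's transcripts.

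The largest differences belonged to hormone genes of the anterior pituitary, a gland outside the cochlea. The transcription factor POU1F1 sets up 3 of its cell types: somatotrophs, which make growth hormone (Gh), lactotrophs, which make prolactin (Prl), and thyrotrophs, which make the beta subunit of thyrotropin (Tshb). Corticotrophs, the source of Pomc, and gonadotrophs arise without it. Cga encodes the alpha subunit shared by thyrotropin and the gonadotropins. The 300 bases around the start sites of Prl, Cga and Tshb are shown because these genes lay higher together. Gh lay higher with them, but the promoter reference held no entry for it, so its sequence was not searched. They are from RefSeq (GRCm38.p6), 250 bases before to 50 after the start, read along the gene's strand, and capitals mark each match to TATNCAT or its reverse complement ATGNATA, a short AT-rich core of the kind POU1F1 binds, searched on both strands.
Prl, chr13:27057320-27057619, plus strand: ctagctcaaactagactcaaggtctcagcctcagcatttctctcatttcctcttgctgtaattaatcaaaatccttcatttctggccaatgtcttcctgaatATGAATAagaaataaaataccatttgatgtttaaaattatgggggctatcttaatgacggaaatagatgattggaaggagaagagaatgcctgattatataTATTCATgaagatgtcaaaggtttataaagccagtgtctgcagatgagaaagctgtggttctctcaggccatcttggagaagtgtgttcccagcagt
Cga, chr4:34893529-34893828, plus strand: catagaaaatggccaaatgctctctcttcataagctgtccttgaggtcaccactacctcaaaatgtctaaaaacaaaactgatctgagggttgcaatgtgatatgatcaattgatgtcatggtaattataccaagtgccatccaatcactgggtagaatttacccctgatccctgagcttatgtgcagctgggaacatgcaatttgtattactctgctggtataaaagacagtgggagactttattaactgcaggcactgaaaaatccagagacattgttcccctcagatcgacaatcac
Tshb, chr3:102782665-102782964, minus strand: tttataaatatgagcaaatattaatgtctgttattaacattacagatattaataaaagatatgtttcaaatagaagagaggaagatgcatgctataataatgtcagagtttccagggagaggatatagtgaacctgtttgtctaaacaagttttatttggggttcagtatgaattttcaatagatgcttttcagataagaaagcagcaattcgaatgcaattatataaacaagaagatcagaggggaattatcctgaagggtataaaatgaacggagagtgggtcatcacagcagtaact
Prl held 2 matches, ATGAATA starting at -148 and TATTCAT starting at -47 from the transcript start, and Cga and Tshb held 0. The 2 motif forms are reverse complements, and 8.84% of 32851 promoters of the same length hold at least 1 match. No match says only that these letters are not in the window.

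Gh read 11.88 and 11.85 in the a pool and 11.66 and 11.75 in the b pool at 45 weeks, against 5.85 and 5.90 in the a pool and 8.21 and 6.14 in the b pool at 15 weeks. The lowest 45-week array thus lay above the highest 15-week array, although the arrays of pool b at 15 weeks stood 2.08 apart. The difference was 5.26 (SE 0.46, adjusted p = 0.136 by limma). Prl read 10.53 and 10.41 in the a pool and 14 and 13.99 in the b pool at 45 weeks, against 5.67 and 5.50 in the a pool and 6.69 and 5.63 in the b pool at 15 weeks. The 45-week pools differed from each other by 3.53 for Prl, with pool b higher, and the difference between ages was 6.36 (SE 0.97, adjusted p = 0.606 by limma). The array median was 5.89, and most 15-week readings of Gh and Prl lay about there. Detection above background was not assessed, so these differences are those of the array scale and not measures of fold change in RNA.

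Cga read 7.28 and 7.35 in the a pool and 7.11 and 6.87 in the b pool at 45 weeks, against 5.60 and 5.61 in the a pool and 5.73 and 5.41 in the b pool at 15 weeks, a difference of 1.57 (SE 0.14). Tshb read 6.43 and 6.84 in the a pool and 6.83 and 6.76 in the b pool at 45 weeks, against 5.44 and 5.47 in the a pool and 5.70 and 5.30 in the b pool at 15 weeks, a difference of 1.24 (SE 0.12). Both genes lay below the array median at 15 weeks, and the ages did not overlap on any array. Dlk1, which encodes a membrane-bound inhibitor of differentiation that is also made in pituitary cells, averaged 7.57 ± 0.29 at 45 weeks and 6.35 ± 0.26 at 15 weeks (SD, n = 2 pools each), a difference of 1.21 (SE 0.19). A further Dlk1 probe gave 0.61.

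Of the anterior pituitary list, 12 genes passed the level filter and 11 named on the array did not. Cga, Tshb and Pomc had 15-week means under the filter level of 5.87 and passed only through their level at 45 weeks, so no count or median over the list is given. The corticotroph hormone gene Pomc read 6.70 and 6.58 in the a pool and 6 and 5.77 in the b pool at 45 weeks, against 5.64 to 5.72 at 15 weeks. Scg2, a secretory granule gene of neuroendocrine cells, lay at -0.38 and Gal, the galanin gene, at -0.25. Chga and Chgb, which encode granins of secretory granules, lay at 0.30 and 0.12. The 11 genes under the filter, among them the gonadotropin genes Fshb and Lhb, lay between -0.10 and 0.17 and were not tested. Tissue of the gland in the dissection was not tested as a source of these transcripts, and no value here tells RNA from more cells and more RNA per cell apart.

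**Figure D2:**
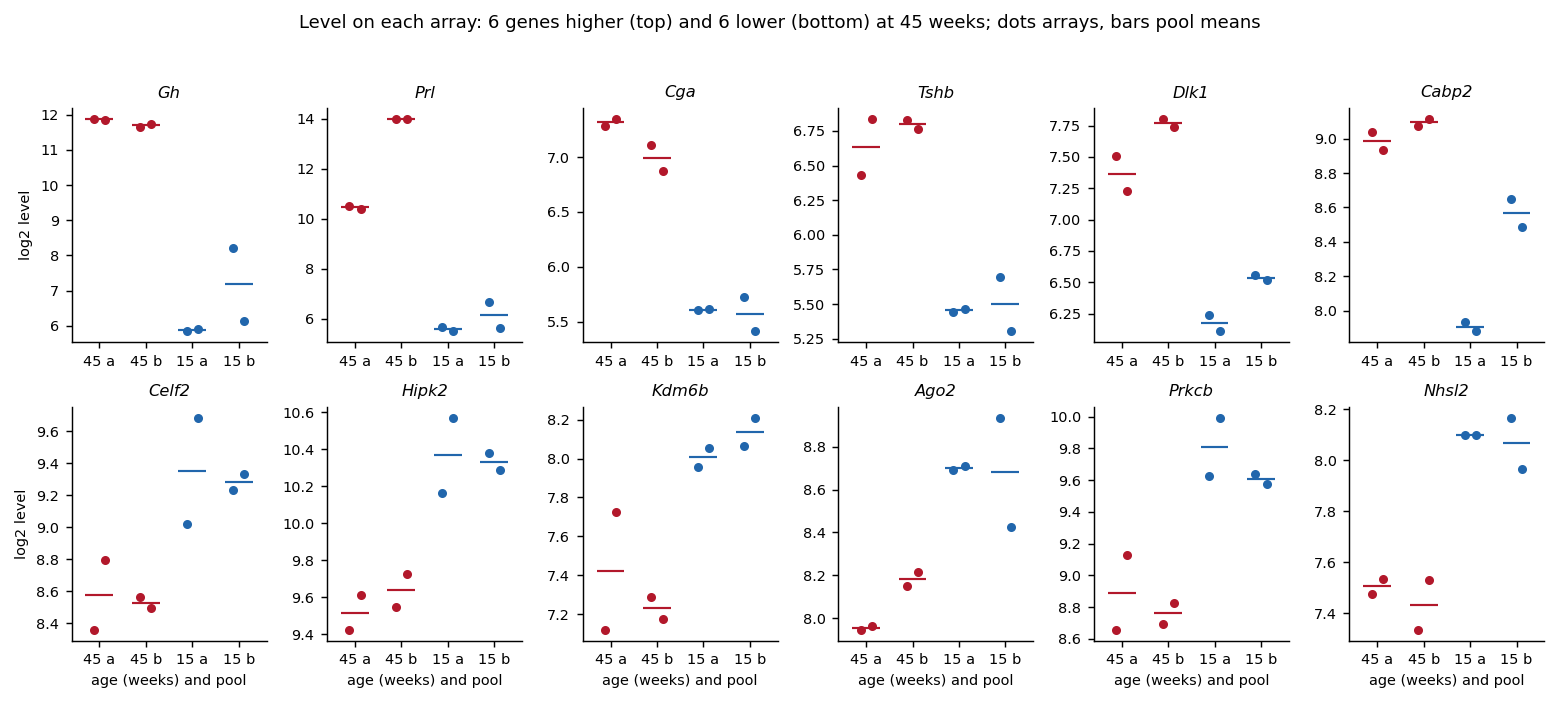
Log2 level of 6 genes that lay higher and 6 that lay lower at 45 weeks, on each array. Dots are the 2 arrays of a pool and bars the pool mean, with the 45-week pools left of the 15-week pools, and for none of the 12 genes do the 45-week arrays reach into the 15-week arrays.

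Beyond the hormone genes, the higher genes of smallest p and of largest difference with separate arrays came from several tissues. Cabp2, which encodes a calcium-binding protein of the hair cell synapse, read 9.04 and 8.93 in the a pool and 9.07 and 9.12 in the b pool at 45 weeks, against 7.93 and 7.88 in the a pool and 8.65 and 8.49 in the b pool at 15 weeks. The difference was 0.80 (SE 0.23), and the gap between the 15-week pools was nearly as wide. Krtdap, a gene of differentiating keratinocytes, lay at 0.98 (SE 0.21), Lgals7, the galectin of stratified epithelium, at 0.76 (SE 0.15, with further probes at 0.37 and 0.01), Defb25, a defensin gene, at 0.84 (SE 0.17) and Fxyd3, a regulator of the sodium pump in epithelia, at 0.60 (SE 0.12). The 15-week means of Krtdap and Lgals7 were 5.72 and 5.63, under the filter level of 5.87. Enho, which encodes the peptide adropin, lay at 0.78 (SE 0.24), with a further probe at 0.36. Ciao2b, a gene of iron-sulfur protein assembly, lay at 0.70 (SE 0.13) and its brighter probe at 0.74. Triap1, a small mitochondrial and p53-dependent survival gene, lay at 0.75 (SE 0.15), but its arrays in pool a at 15 weeks read 9.29 and 8.52.

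Cmtm5 lay at 0.73, Fam178b at 0.70, Fam220a at 0.81 and Morn2 at 0.80, each with all arrays apart, and 2 further Fam220a probes gave 0.33 and 0.21. Ptp4a3, a phosphatase gene, lay at 0.73 (SE 0.14) and Uba6, a ubiquitin-activating enzyme gene, at 1.03 (SE 0.43). The second probe of each gave no such difference, at -0.02 for Ptp4a3 and -0.03 for Uba6, both near the dim end of the array.

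Among the lower genes of smallest p or of largest difference with separate arrays, Celf2, an RNA-binding splicing regulator, read 8.36 and 8.80 in the a pool and 8.56 and 8.50 in the b pool at 45 weeks, against 9.02 and 9.68 in the a pool and 9.23 and 9.33 in the b pool at 15 weeks. The difference was -0.76 (SE 0.14, adjusted p = 0.606 by limma), and 3 further Celf2 probes gave -0.52, -0.36 and -0.23. Ago2, the slicing Argonaute of the microRNA pathway, read 7.95 and 7.96 in the a pool and 8.15 and 8.22 in the b pool at 45 weeks, against 8.69 and 8.71 in the a pool and 8.94 and 8.43 in the b pool at 15 weeks. Its 3 probes agreed, at -0.62, -0.63 and -0.58. Prkcb, a protein kinase C gene, read 8.66 and 9.13 in the a pool and 8.69 and 8.83 in the b pool at 45 weeks, against 9.63 and 9.99 in the a pool and 9.64 and 9.57 in the b pool at 15 weeks, a difference of -0.88 (SE 0.18). Of 2 further Prkcb probes 1 gave -0.61 and 1 gave -0.12.

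Nhsl2 lay at -0.61 (SE 0.12) with a brighter probe at -0.79, Sema5a, an axon guidance gene, at -0.62 with a second probe at -0.50, and Rab22a, a gene of endosomal traffic, at -0.54 with a second probe at -0.55. Zfp292, a zinc finger gene, lay at -0.90, -0.89 and -0.51 by its 3 probes. Kdm6b, a histone H3 lysine demethylase, read 7.12 and 7.72 in the a pool and 7.29 and 7.17 in the b pool at 45 weeks, against 7.96 and 8.05 in the a pool and 8.07 and 8.21 in the b pool at 15 weeks, a difference of -0.75 (SE 0.15). Dimmer Kdm6b probes gave -0.46 and -0.12. Setd1b, a histone methyltransferase gene, lay at -0.79 (SE 0.17), and Rcor1, a corepressor gene, at -0.97 (SE 0.32) with a second probe at -0.32. Cnot6l, a deadenylase of the mRNA decay machinery, lay at -0.51 and -0.32.

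The largest lower differences with separate arrays were those of Zfp871 at -1.12 (SE 0.32), Atp8a1, a phospholipid flippase, at -1.07 (SE 0.33), Fam102b at -1.06 (SE 0.27), Gna13, a G protein alpha subunit, at -1 (SE 0.25) and Tns1, the tensin of focal adhesions, at -0.99 (SE 0.25). Sppl2a, Ccser2 and Klf7 lay at -0.84 and Zdhhc21 at -0.83, and the further probes of these genes gave -0.22 to -0.70. Atp8a1 had further probes at -0.30 and -0.29 and Fam102b at -0.40. The arrays of pool a at 15 weeks were wide apart for several of these, at 9.20 and 10.34 for Tns1 and 8.94 and 9.75 for Fam102b. The kinase gene Hipk2 lay at -0.77 by the probe of smallest p, with 2 dimmer probes at 0.13 and -0.20. Gna13 lay at 0.15 by a second probe, Purb at -0.66 and -0.06, and Ddx3x, the RNA helicase, at -0.66 and -0.14, with overlapping arrays for its first probe. Across the array, 4648 genes had at least 2 tested probes, and in 61.7% of these all probes pointed 1 way. Among the 767 of them with a probe at an unadjusted p under 0.05 the share was 77.6%.

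Genes were then grouped by role into 48 lists and described by the brightest tested probe of each gene. Over all 12595 genes the median was -0.01, with 6129 higher and 6466 lower. The pools lay apart for 2544 genes (20.2%) on the higher and 2721 (21.6%) on the lower side. The arrays lay apart for 651 on the higher and 652 on the lower side. By limma, 543 higher and 606 lower genes had an unadjusted p under 0.05. The list counts below are to be read beside these.

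Nuclear genes of the mitochondrial energy machinery lay higher together. Complex I passes electrons from NADH into the respiratory chain, and of its 34 genes tested 32 lay higher at 45 weeks and 2 lower, with a median of 0.29. For 26 the pools (76.5%, against 20.2% of all genes), and for 15 the arrays, lay apart on the higher side. By limma 10 genes had an unadjusted p under 0.05, all higher. Without Ndufb7 and Ndufa2, already known from earlier results, 30 of 32 lay higher, with a median of 0.27. Ndufb7 lay at 0.72 (SE 0.17), Ndufa2 at 0.54 and Ndufb4 at 0.53, all with separate arrays. Ndufa7 read 12.21 and 12.15 in the a pool and 12.28 and 12.34 in the b pool at 45 weeks, against 11.64 and 11.55 in the a pool and 11.84 and 11.84 in the b pool at 15 weeks, a difference of 0.52 (SE 0.17). The 2 lower genes were Ndufv1, which binds NADH, at -0.16 and Ndufa10 at -0.01.

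Of 33 genes of complexes II to V, which complete the chain and make ATP, 30 lay higher and 3 lower, with a median of 0.23. Of the 33, 23 had pools (69.7%, against 20.2% of all genes) and 9 had arrays apart on the higher side. Without Atp5e and Cyc1, already known from earlier results, 28 of 31 lay higher, with a median of 0.22. Atp5e, a small subunit gene of ATP synthase, lay at 0.69 (SE 0.31), Cyc1, the cytochrome c1 gene of complex III, at 0.49, Atp5g2, a gene of the ring of ATP synthase, at 0.44 and Cox7b, a cytochrome oxidase subunit gene, at 0.40. The arrays overlapped for Cyc1 and Cox7b. The 3 lower genes were all of ATP synthase: Atp5b at -0.23, Atp5a1 at -0.13 and Atp5g3 at -0.07. Atp5b and Atp5a1 encode the catalytic head, and for Atp5b the arrays lay apart, at 13.73 to 13.95 at 45 weeks against 14.02 to 14.22 at 15 weeks.

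Mitochondrial ribosomal proteins, which build the ribosome that translates the few proteins encoded in mitochondrial DNA, lay higher as well. Of 70 genes tested 63 lay higher and 7 lower, with a median of 0.26. On the higher side 46 (65.7%, against 20.2% of all genes) had separate pools and 25 separate arrays. By limma 20 genes had an unadjusted p under 0.05, all higher. Mrps21 read 10.89 and 10.75 in the a pool and 10.86 and 10.82 in the b pool at 45 weeks, against 10.22 and 9.85 in the a pool and 10.18 and 10.42 in the b pool at 15 weeks, a difference of 0.67 (SE 0.14). Mrpl54 lay at 0.58, Mrpl53 at 0.56 and Mrps18a at 0.56. Of the 7 lower genes, Mrpl50 had the largest difference, at -0.22, and Mrps9 lay at -0.20.

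Cytosolic ribosomal proteins differed less, with 40 of 50 genes higher, 10 lower and a median of 0.09. The pools lay apart on the higher side for 20 (40.0%), led by Rps15 at 0.51 (SE 0.19). That share was 20.2% over all genes and 34.6% over the genes of shortest span, described below. Of 31 antioxidant and glutathione enzyme genes 24 lay higher, with a median of 0.13, which was 0.25 without pool a and 0.06 without pool b at 45 weeks. Among them were Gpx4, which detoxifies lipid peroxides, at 0.45, Gstm5 at 0.44 and Gsta4 at 0.44. Gclc, the catalytic subunit of glutathione synthesis, lay at -0.29. Proteasome subunits were divided, with 14 of 27 higher and a median of 0.02.

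Chromatin regulators and kinases lay lower together, with 3 of 23 genes higher, 20 lower and a median of -0.29. The pools lay apart on the lower side for 14 (60.9%, against 21.6% of all genes) and the arrays for 7. By limma 8 genes had an unadjusted p under 0.05, all lower. Kmt2a, a histone methyltransferase, read 9.14 and 9.15 in the a pool and 9.22 and 8.95 in the b pool at 45 weeks, against 9.59 and 10.42 in the a pool and 9.72 and 9.55 in the b pool at 15 weeks. Its difference was -0.70 (SE 0.17), with a second probe at -0.76. Ep300, a histone acetyltransferase, lay at -0.62, Arid1b, a subunit of the SWI/SNF remodeller, at -0.53 and Kmt2c at -0.67. RNA-binding and splicing regulators had 6 of 33 genes higher, 27 lower and a median of -0.23. Their pools lay apart on the lower side for 15 (45.5%, against 21.6% of all genes). Mbnl1, a splicing regulator of the muscleblind family, lay at -0.54, Pum2, a translational repressor, at -0.56 and Ddx6, a helicase of mRNA decay, at -0.35. Both lists were written with some lower genes already known. Without these, the chromatin list had 18 of 21 genes lower with a median of -0.26 and the RNA-binding list 25 of 31 with a median of -0.18.

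Heat shock and chaperone genes had 3 of 23 higher, 20 lower and a median of -0.15. Their pools lay apart on the lower side for 11 (47.8%, against 21.6% of all genes). Hsp90aa1, the inducible cytosolic HSP90, lay at -0.44, Dnajc3 at -0.33, Hsph1 at -0.32 and Hspd1, the mitochondrial HSP60, at -0.19. Hspe1, the mitochondrial co-chaperonin that works with HSP60, lay opposite at 0.46 (SE 0.14), with all arrays apart. Cryab, a small heat shock protein gene of lens and muscle, lay at 0.49.

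**Figure D3:**
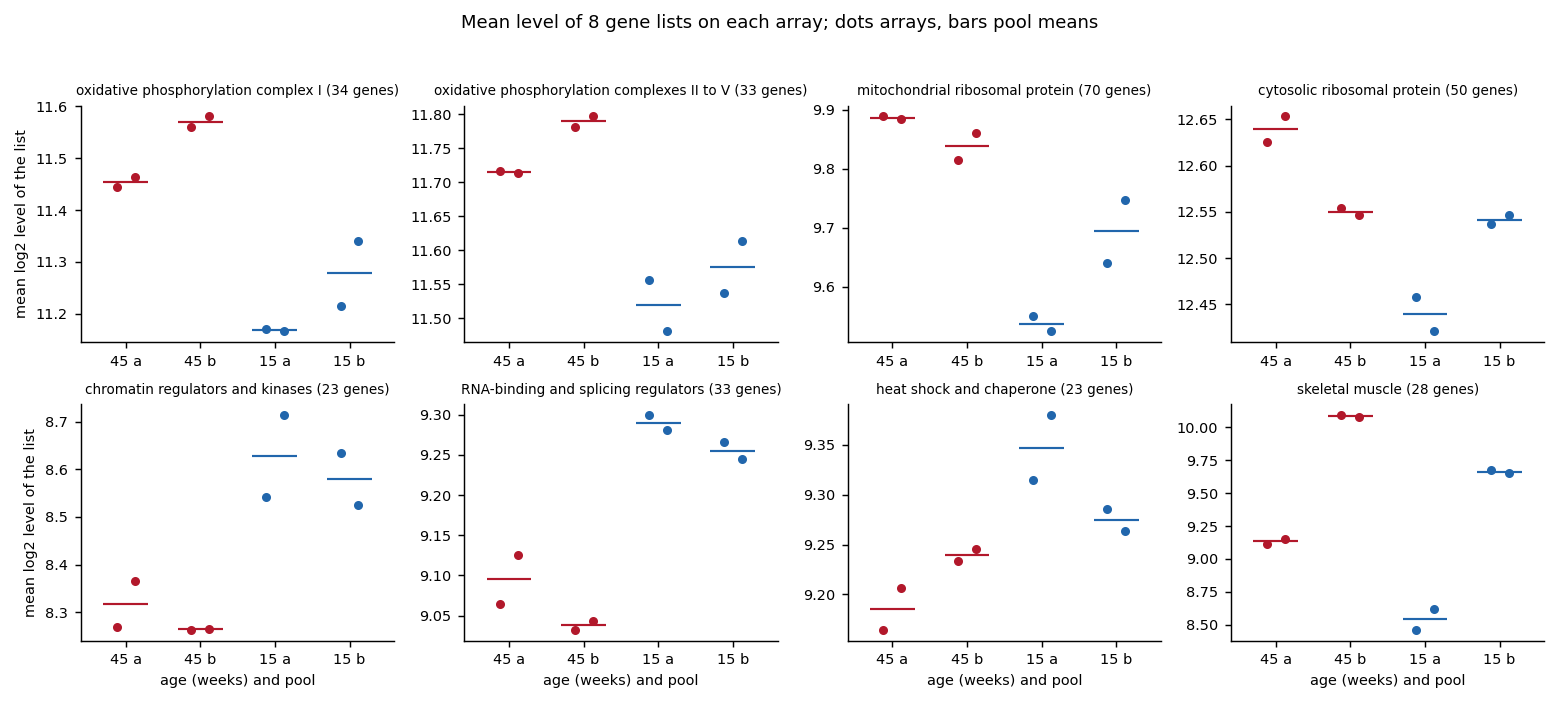
Mean log2 level of 8 gene lists on each array, with dots for arrays and bars for pool means. The 45-week arrays lie above the 15-week arrays for the first 4 lists and below them for chromatin, RNA-binding and heat shock genes, while the skeletal muscle list is split by pool.

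List means on single arrays kept the ages apart for 11 of the 48 lists, 6 higher and 5 lower. The 6 include the anterior pituitary list, with members that passed the level filter only through 45 weeks. Several of the 11, among them complex I, keratins, chromatin and RNA-binding regulators, held genes already known to differ. Complex I averaged 11.44 and 11.46 in the a pool and 11.56 and 11.58 in the b pool at 45 weeks, against 11.17 and 11.17 in the a pool and 11.22 and 11.34 in the b pool at 15 weeks. Mitochondrial ribosomal genes averaged 9.81 to 9.89 at 45 weeks against 9.52 to 9.75 at 15 weeks, and chromatin regulators 8.26 to 8.36 against 8.53 to 8.71. Cytosolic ribosomal genes were barely apart, at 12.55 to 12.65 at 45 weeks against 12.42 to 12.55 at 15 weeks. Leaving out each pool in turn, the median ran from 0.21 to 0.39 for complex I, 0.15 to 0.32 for mitochondrial ribosomal, -0.34 to -0.24 for chromatin and -0.26 to -0.12 for RNA-binding genes.

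The same split appeared when genes were ordered by how much of the genome they span, a property no list had used. Spans came from RefSeq (GRCm38.p6) and were found for 99.9% of the genes. The genes were split into 4 span groups of 3145. In the shortest group, up to 8.91 kb, 68.9% lay higher at 45 weeks, with a median of 0.10. In the longest span group, from 53.1 kb, 28.7% lay higher, with a median of -0.11. The middle groups lay between, with medians of 0.02 and -0.04. The pools lay apart on the higher side for 34.6% of the shortest genes and 8.52% of the longest, and on the lower side for 9.35% and 36.2%. Without each pool in turn the median ran from 0.07 to 0.13 for the shortest and from -0.12 to -0.10 for the longest span group. Between pools of an age, pool a minus pool b, the median of the shortest and of the longest span group was 0.02 and -0.01 at 45 weeks and -0.06 and 0.03 at 15 weeks.

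Most mitochondrial genes are short and most chromatin regulators long, and their medians were therefore set beside those of all genes of the same span. Of the mitochondrial ribosomal genes 43 fell in the shortest span group, with a median of 0.26 against 0.10 for all genes there, and 18 in the next, with 0.29 against 0.02. Of the chromatin regulators 17 fell in the longest span group, all lower, with a median of -0.33 against -0.11, and 4 in the group before it, with -0.01 against -0.04. The chromatin list includes the genes already known to be lower. The 48 cytosolic ribosomal genes in the shortest span group had a median of 0.09 against 0.10. These comparisons matched genes on span but not on level, and the span medians differed by level. From the dimmest to the brightest of 4 level groups, the longest span group had medians of -0.02, -0.10, -0.16 and -0.21. The shortest span group had 0.04, 0.10, 0.17 and 0.12. How far the lists depart from genes of the same span and level was not tested. The array gaps moved with span as well. In the longest span group, array 2 minus array 1 had a median of 0.06 in the a pool and 0.00 in the b pool at 45 weeks, against 0.07 in the a pool and -0.01 in the b pool at 15 weeks. Across probes the age difference had r = -0.34 with that gap in the a pool and -0.12 in the b pool at 45 weeks, against -0.34 in the a pool and 0.02 in the b pool at 15 weeks. The part of RNA quality in the pattern was not tested.

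**Figure D4:**
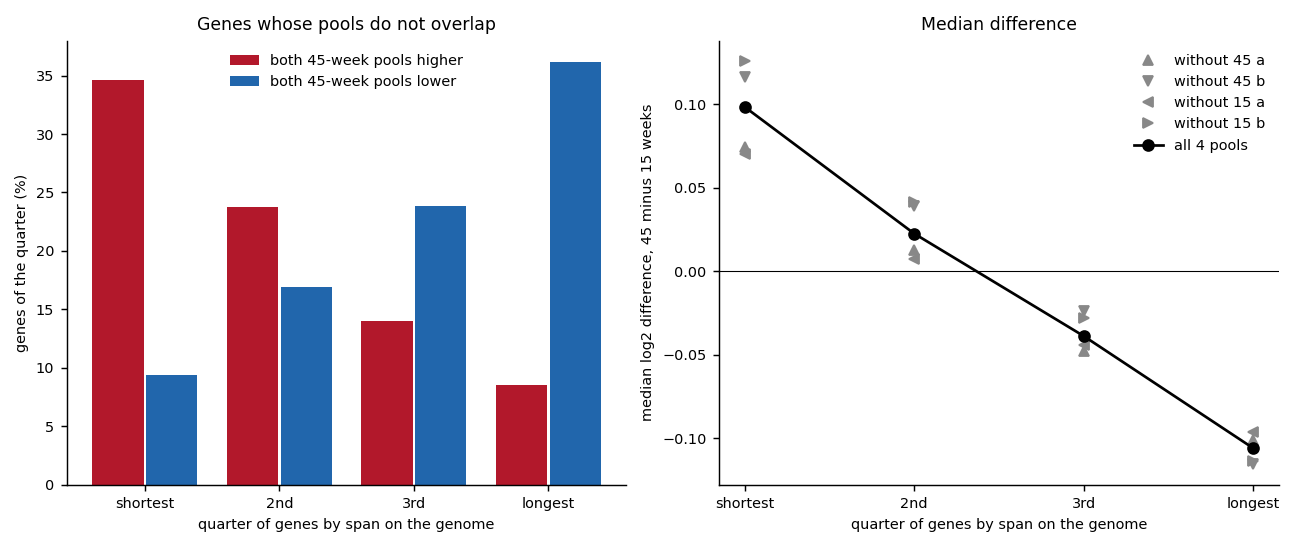
Genes split into 4 equal groups by genomic span. Left, the percent of genes whose 45-week pools both lie above (red) or below (blue) the 15-week pools, at 34.6% and 9.35% in the shortest and 8.52% and 36.2% in the longest span group. Right, the median log2 difference with all 4 pools (black) and without each pool in turn (grey).

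The lists of hair bundle and hair cell genes did not hold Cabp2, described above. Its 95% interval ran from 0.26 to 1.34, with an adjusted p of 0.606 by limma. Cabp2 was named for its large difference among all named probes, so its interval cannot be compared with those of the listed genes. Of the 28 listed genes tested, 17 lay higher and 11 lower, from -0.25 for Clrn1, a gene of the hair bundle and synapse, to 0.43 for Ocm, the oncomodulin gene of outer hair cells. The other 2 Clrn1 probes gave 0.23 and 0.28. The 95% interval of the difference included 0 for all 28, with a half-width from 0.26 to 0.63, so that smaller differences than these cannot be read. Cdh23 averaged 5.97 ± 0.04 at 45 weeks and 6.01 ± 0.15 at 15 weeks (SD, n = 2 pools each), a difference of -0.05 (SE 0.12) at a level near the array median. Tmc1, a subunit of the transduction channel, lay at -0.07, Myo7a, the myosin of the bundle, at -0.01 and Otof, which encodes otoferlin of the ribbon synapse, at 0.14 (SE 0.17). Lhfpl5, a partner of the transduction channel, lay at 0.28 with all arrays apart. Slc26a5, which encodes the outer hair cell motor prestin, and the hair cell factor gene Pou4f3 had mean levels under the filter and read between 5.43 and 5.94 on the 8 arrays.

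Supporting cell genes were split, with 12 of 19 higher and a median of 0.01. Notch1, the receptor that holds supporting cells in their fate, lay at -0.56 (SE 0.15) with all arrays apart, and Slc1a3, a glutamate transporter of supporting cells and fibrocytes, at -0.34. The tectorial membrane genes Tectb and Tecta lay at 0.28 and 0.22. The gap junction genes Gjb2 and Gjb6 lay at -0.25 and -0.16, with Gjb2 at 12.55 to 12.77 on the arrays at 45 weeks against 12.72 to 13.16 at 15 weeks. Dimmer Gjb2 probes gave -0.11 and 0.28.

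Stria vascularis genes had 6 of 16 higher and a median of -0.06. Kcne1, a subunit of the potassium channel that feeds the endolymph, read 9.90 and 9.84 in the a pool and 9.97 and 9.90 in the b pool at 45 weeks, against 9.11 and 9.26 in the a pool and 9.65 and 9.65 in the b pool at 15 weeks. Its difference was 0.48 (SE 0.17), and 3 dimmer probes gave 0.20, 0.11 and -0.05. Slc12a2, the chloride cotransporter that loads the marginal cell with potassium, lay at -0.28 with all arrays apart. The melanocyte genes were divided, with Mlana at 0.52 and Mitf at -0.39. The ligament fibrocyte list had 8 of 19 higher and a median of -0.08, with Coch at -0.09 and Otos at 0.16.

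Among spiral ganglion genes the members moved both ways. Stmn3, a microtubule regulator of neurons, lay at 0.50 (SE 0.14) and Slc17a7, a vesicular glutamate transporter gene, at 0.62 (SE 0.18). Syt1, a synaptic calcium sensor, lay at -0.64 (SE 0.25) with a second probe at -0.52, Kcnc1, a fast potassium channel gene, at -0.52 (SE 0.17) with a dim second probe at 0.11, and Ntrk3, the receptor of neurotrophin 3, at -0.43. The list median of -0.14 was 0.11 when either a pool was left out. Leaving out a b pool made it -0.42 (45 weeks) or -0.48 (15 weeks). A list of 13 neurotrophin and growth factor receptor genes had 3 with lower arrays throughout, against 652 of 12595 over all genes. They were Ntrk3, Sort1 at -0.47 and Igf1r, the receptor gene of insulin-like growth factor 1, at -0.48. Further probes gave -0.37 for Ntrk3, -0.25 to -0.17 for Igf1r and -0.51 to 0.00 for Sort1, and not all had separate arrays. Myelin genes had 11 of 16 higher and a median of 0.15, among them Cldn19 at 0.42, Fa2h at 0.52 and Mbp at 0.23. Mbp, the gene of myelin basic protein, was divided among probes: a dimmer one gave -0.38 with all arrays apart on the lower side, and 2 more gave 0.14 and 0.04. The oligodendrocyte gene Mog, a marker of central myelin, lay at 0.67 and 0.56 by its 2 probes.

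Over all genes the pools lay apart for 41.8%. Among vessel and bone lists they did so for 6 of 16 endothelial, 5 of 13 pericyte, 6 of 12 osteoclast and 0 of 15 osteoblast genes. Without 2 genes already known from earlier results, 10 osteoclast genes were left. Their pools lay apart for 1 on the higher and 3 on the lower side. The receptor genes Flt1 at -0.79 (SE 0.26) and Tek at -0.37 had lower arrays throughout, and Egfl7, a secreted endothelial factor gene, lay at 0.36 and 0.63 by its 2 probes. Mmp14, a membrane metalloprotease gene, lay at -0.62 and the neutrophil granule gene Ltf at -0.62 and -0.54. Ltf was the lowest of 19 neutrophil granule genes, of which 6 lay higher and 13 lower, with a median of -0.02. The pools lay apart on the lower side for 21.1% of these 19, against 21.6% over all genes. Of 19 macrophage genes 13 lay higher, with a median of 0.14 that ran from -0.10 to 0.20 as pools were left out. In this list the adaptor gene Tyrobp lay at 0.45 and the receptor gene Mrc1 at -0.35. Irf7, an interferon regulator, lay at 0.43. Keratins and stratified epithelium had 11 of 15 higher and a median of 0.16, but 9 of 13 and 0.07 without the 2 genes already known from earlier results. Both counts include Lgals7, whose 15-week mean of 5.63 lay under the filter level of 5.87. Its 45-week level helped it pass, so the counts partly reflect the filter. The list's members included Krt17 at 0.77 (SE 0.16), Lor, the loricrin gene, at 0.68 and Krt10 at 0.51. The 45-week arrays lay above the 15-week arrays for all 3.

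Several lists followed single pools. Skeletal muscle genes had 27 of 28 higher with a median of 0.46, but the pools lay apart for only 4 on the higher side, and the list averaged 9.12 and 9.15 in the a pool and 10.09 and 10.08 in the b pool at 45 weeks, against 8.46 and 8.62 in the a pool and 9.67 and 9.65 in the b pool at 15 weeks. Its median was -0.06 without pool a at 15 weeks. The muscle list held 4 genes already known from earlier results. Without them 23 of 24 lay higher, with a median of 0.40 over all pools. Osteoblast and osteocyte genes had a median of 0.24 that was -0.18 or 0.58 when the a or the b pool at 15 weeks was left out, and 0 of 15 had separate pools. The B cell and plasma cell list had a median of -0.19 that was 0.10 without pool b at 45 weeks, and antigen presentation genes ran from -0.22 to 0.34 as pools were left out. Of the bone genes, Bglap, which encodes osteocalcin of bone, read 10.52 and 10.38 in the a pool and 9.96 and 10.04 in the b pool at 45 weeks, against 7.94 and 8.18 in the a pool and 10.80 and 10.53 in the b pool at 15 weeks (probe ILMN_3028702).

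**Figure D5:**
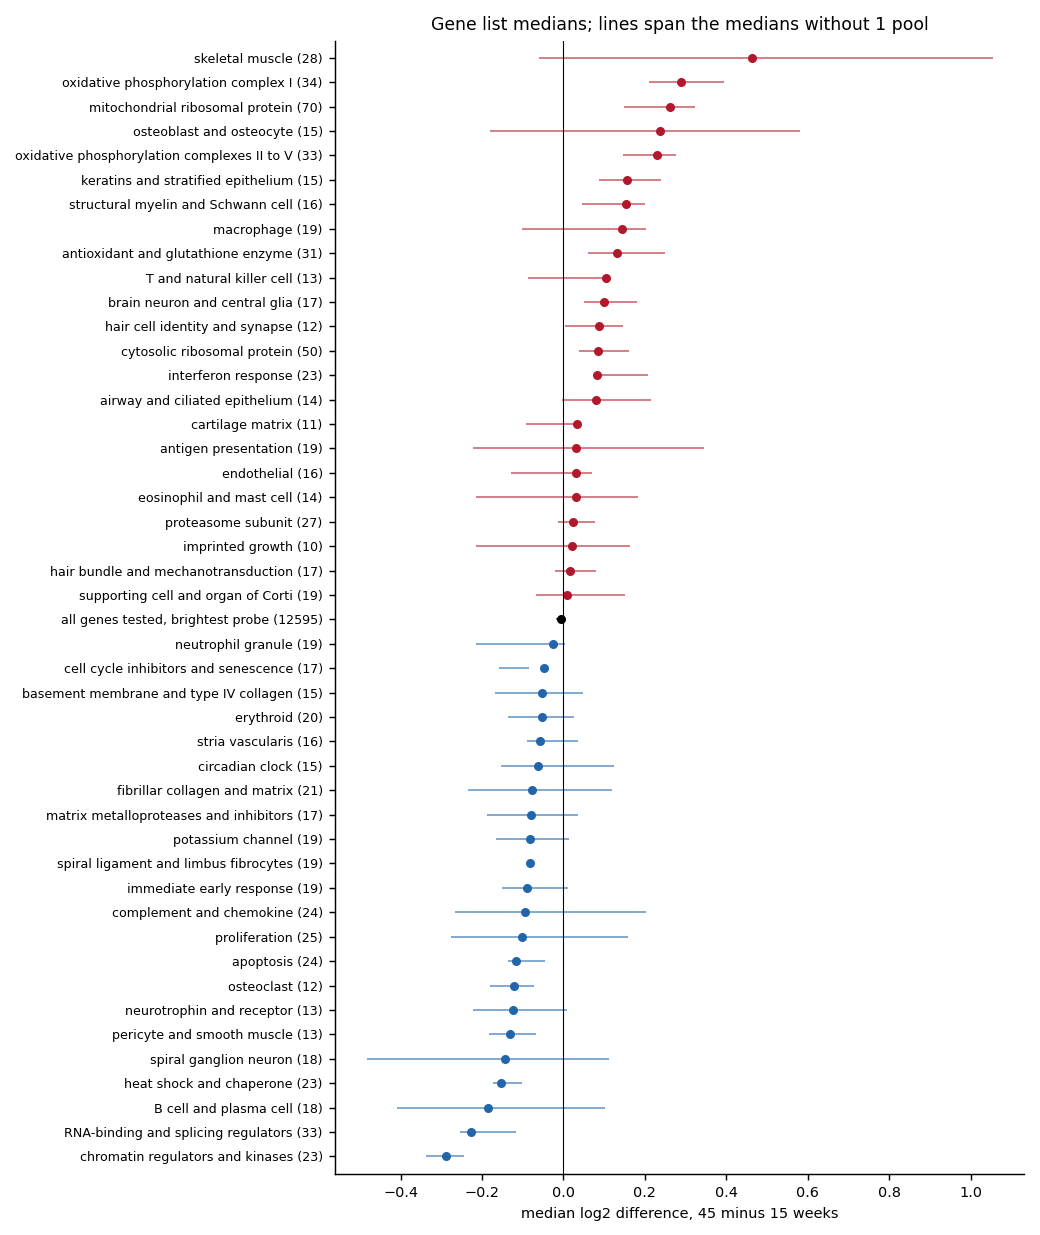
Median log2 difference (45 minus 15 weeks) of 45 gene lists and of all genes, with the number of genes tested in brackets. Lines run from the lowest to the highest median when 1 of the 4 pools is left out, and they cross 0 for skeletal muscle, osteoblast, B cell and several immune lists but stay on 1 side for mitochondrial, chromatin and RNA-binding genes.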

How the data were processed

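Total RNA from cochleae was extracted with a column kit, copied into biotin-labelled cRNA and hybridised to Illumina mouse BeadChips, per the labels' protocols. The deposited value table holds log2 intensities of 12 arrays that the authors had normalized between arrays: the sorted columns are identical (largest gap 0). Quantile normalization of this kind hides a shift of most transcripts in 1 direction. Background correction and software were not stated in the labels or files. Another table has 12 value and 12 detection columns that match no label, and none was used, so detection was not assessed.

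Of 45281 probes, 34885 had 1 gene symbol, 18 several and 10378 none. Symbols were updated by gene number through RefSeq GRCm38.p6 for 34807 probes. The 2 arrays of a pool were averaged. Probes with a mean over the 6 pools of all ages above the all-probe median (5.87) were tested, 22640 in all. Under R 4.3.3, limma 3.58.1 fitted 6 pool means of 3 ages (3 residual degrees of freedom, 3.84 from the eBayes prior), and p-values were adjusted by Benjamini-Hochberg over all tested probes. Nothing says that the pools came from separate animals, so the p-values measure the spread between these pools. The number of pools, 2 per age, limits the precision. The fit was also run on simulated data in which each probe varied independently of the others. That run cannot show how the fit behaves when many probes of a pool shift together.

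Named genes were the 12 higher and 12 lower of smallest p, the 12 each way of largest difference with separate arrays, up to 4 members of each list with the largest difference and those against the list's direction, and a set of cochlear and sex-linked genes. Other examples (Bpifb1, Lipf and further list members) were chosen after their values were seen. The members, lists and rules were chosen with earlier results of these data known. Replicate letters were checked as pairs by the correlation across probes of deviations from the age means. Between pools a it was -0.39 for 45 and 15 weeks, 0.18 for 45 and 4 weeks and -0.11 for 15 and 4 weeks. With 2 pools an age, these values cannot show whether the letters pair the pools. The reported fit did not pair them. Alternatives were other level filters, single arrays, pools as a random block, letters as a block, each pool left out, the 2 ages alone, a trended robust prior, a covariate for Xist, and cyclic loess.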

Additional observations from a re-analysis of the deposited data

How the results depend on the processing

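Alternatives changed how many probes passed limma's test and also which probes these were. Against 0 probes in the analysis reported, 6 were called with all 12 arrays fitted and pool a random block (Gh, Prl, Cga, Tshb, Dlk1 and an unnamed probe), 2 with a trended robust prior (Cga and Tshb) and 1 from array 2 of each pool alone (Gh). Leaving out 1 pool gave 0 to 12 calls. The 12 came without pool b at 45 weeks and were mostly salivary genes high in pool a, with Prl and Cga, and 1 came without pool a at 45 weeks (Prl). Each single-pool age is assumed to vary like the others. With the replicate letter as a block 0 probes were called and 1720 had an unadjusted p under 0.05, and it changed no other call. A crossed pairing of letters, chosen after the data were seen, called 1 probe, Gh.

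The 1845 probes at an unadjusted p under 0.05 became 3255 with no level filter, 1066 above the 75th percentile, 1022 from array 1 of each pool alone and 1185 with the Xist level as a covariate, and 517 to 2711 without 1 pool, 517 being without pool a at 15 weeks. Pools did not overlap for 8984 probes, against 16348 with no filter, 5054 above the 75th percentile and 14695 to 16702 without 1 pool. Arrays did not overlap for 2090 probes, against 4418 to 7246 without 1 pool. These counts grow because fewer arrays have to be apart, or because more probes are counted.

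Of 2796 differences of 233 named probes under the alternatives, 2751 kept their sign and 45 took the opposite one, and 198 probes kept it throughout. Of 528 list medians 455 kept their sign, and 21 of 48 lists kept it throughout.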
